A study of Mus musculus with 8 samples.

Results

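The 33 genes described here encode the enzymes and regulators of sterol and fatty acid synthesis, and they were followed in cells of parietal bone from mouse pups 4 to 5 days after birth. They were taken by name from 31053 genes of the deposited tables, and all 33 were found. They comprise 17 enzymes of the mevalonate and sterol pathway (Hmgcs1, Mvk, Pmvk, Mvd, Idi1, Fdps, Fdft1, Sqle, Lss, Cyp51, Tm7sf2, Msmo1, Nsdhl, Hsd17b7, Ebp, Sc5d and Dhcr7), 2 related genes, one that supplies a precursor and one that carries cholesterol (Acat2 and Stard4), 5 regulators (Srebf1, Srebf2, Scap, Insig1 and Insig2) and 9 genes of fatty acid synthesis, elongation and desaturation (Fads1, Fads2, Scd1, Scd2, Fasn, Acaca, Acly, Elovl6 and Elovl5). No measured value was used to choose them, but the set was proposed with earlier results of these data known.

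The mevalonate pathway turns acetyl-CoA into isoprenoids and, through squalene and lanosterol, into cholesterol. Fatty acid synthesis starts from the same precursor, which Acly makes from citrate. Both pathways are driven by SREBP transcription factors, which sit in the endoplasmic reticulum membrane with the escort protein SCAP. The INSIG proteins hold that complex in the endoplasmic reticulum when sterols are plentiful, and when sterols run low the factor moves to the Golgi, is cut and enters the nucleus. Osteoblasts make large amounts of procollagen in the endoplasmic reticulum, and Fdps is the target of the nitrogen-containing bisphosphonates used to treat fragile bone.

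Single cells were profiled by 10x 3′ RNA sequencing in 8 libraries: 4 of WT (wild type) animals and 4 of Het animals, which carry 1 copy of G610C, a glycine to cysteine substitution in the α2(I) chain of procollagen, encoded by Col1a2, which serves as a mouse model of osteogenesis imperfecta. The G610C line was the strain B6.129(FVB)-Col1a2tm1Mcbr/J, kept on the C57BL/6J background. Cells of up to 5 animals of 1 genotype went into each library, so single animals cannot be separated. The WT libraries are S1, S2, S5 and S6, the Het libraries S3, S4, S7 and S8, and the first 4 by number used kit version 3 while the last 4 used version 3.1. The labels do not say whether libraries of the same genotype and kit came from separate litters, so the p-values measure the spread between these libraries, which may be partly technical. Counts of 3′ tags do not read the substituted codon and cannot check the genotype.

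The tables held 68625 barcodes, of which 46420 passed the filters on genes and mitochondrial transcripts, and the libraries had 30480239 to 85162035 transcripts counted by unique molecular identifier (UMI). Osteoblasts (OBs), cells with at least 10 Col1a1 UMIs and at least 2 UMIs of 2 or more of Runx2, Sp7 and Ibsp, numbered 1706 in WT and 965 in Het. They were split by the share of Col1a1 in their UMIs into early OBs (eOBs, under 0.75%), differentiating OBs (dOBs) and mature OBs (mOBs, over 3.5%). These stages are ranges of 1 measure: 79 OBs lay within 10% of the lower limit and 212 within 10% of the upper limit. Libraries held 73 to 299 mOBs in WT and 42 to 192 in Het. At most 24 cell barcodes were shared by any pair of libraries, and no OB barcode was. Haemoglobin transcripts were common in some libraries: the share of mOBs with at least 3 erythroid markers ranged from 1.67% to 93.5% in WT and from 0% to 17.7% in Het.

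Sequence near the start of transcription was taken from RefSeq (build GRCm38.p6), which held 34 start sites for 26 of the 33 genes. Fdps, Fdft1, Sqle, Stard4, Fads1, Scd1 and Scd2 had no entry. In the 250 bases before the start, on either strand, the CCAAT box, read by the factor NF-Y, was found at 21 of the 34 starts (61.8%) and at 33.8% of all 32851 starts of the table. At least 1 start of all 14 sterol enzymes with an entry held it. The GC box GGGCGG, read by Sp1, was found at 24 of the 34 starts and at 32.7% of all starts, and the E-box CACGTG at 6 of the 34 starts and at 6.02% of all. The sterol regulatory element core TCACNCCAC was found at 1 start, that of Hmgcs1, and at 1.05% of all starts. The amino acid response element TTGCATCA was also found at 1 start, that of Insig2, and at 0.791% of all starts, and it lay before another start of Insig2 than the one printed here. No matches overlap in the windows printed here, and a match is a description of the sequence only.

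Hmgcs1, Cyp51 and Insig2, whose values in mOBs are described next, are shown with their upstream sequence, to set an enzyme gene with the sterol regulatory element core beside another enzyme gene and beside a regulator whose difference had the other sign. Capitals mark the searched motifs. Hmgcs1 is shown at chr13:119690101-119690350 (plus strand), Cyp51 at chr5:4104747-4104947 (minus strand) and Insig2, at the most upstream of its 3 starts, at chr1:121332590-121332839 (minus strand), each 5′ to 3′.
Hmgcs1: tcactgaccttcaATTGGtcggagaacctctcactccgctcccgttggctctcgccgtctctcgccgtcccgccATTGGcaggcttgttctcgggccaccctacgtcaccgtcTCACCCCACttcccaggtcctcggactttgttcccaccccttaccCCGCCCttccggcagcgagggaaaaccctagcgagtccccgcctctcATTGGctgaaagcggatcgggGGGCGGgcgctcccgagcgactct
Cyp51: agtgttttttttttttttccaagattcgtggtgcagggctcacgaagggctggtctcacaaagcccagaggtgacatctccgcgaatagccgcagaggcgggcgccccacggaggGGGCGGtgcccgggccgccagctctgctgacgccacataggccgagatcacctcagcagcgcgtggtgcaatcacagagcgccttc
Insig2: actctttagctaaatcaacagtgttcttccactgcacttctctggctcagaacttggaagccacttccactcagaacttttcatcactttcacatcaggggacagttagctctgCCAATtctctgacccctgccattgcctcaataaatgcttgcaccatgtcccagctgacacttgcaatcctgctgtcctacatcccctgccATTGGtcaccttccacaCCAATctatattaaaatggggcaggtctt
The Hmgcs1 window held TCACCCCAC with its first base 137 bases before the start, between CCAAT boxes at 176 and 45 bases, a further CCAAT box at 237 bases, and GC boxes at 92 and 24 bases. The Cyp51 window held a GC box 135 bases before the start. Its CCAAT box, 29 bases before the start, lies within the gene as GENCODE annotates it and is not printed. The Insig2 window held 3 CCAAT boxes, at 136, 46 and 29 bases before the start, and neither a GC box nor the sterol regulatory element core.

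In mOBs, Fdps, Cyp51 and Fads1 were called higher in Het, and no member was called lower. Of 30 members with enough UMIs for the test, 3 were called higher, where 0.405% of all 9623 genes were called higher and 0.26% lower (edgeR quasi-likelihood test with kit version in the model, Benjamini-Hochberg adjusted p under 0.05 over all genes). Levels are given as CPM, the UMIs of a gene scaled by all UMIs of the same cells, and fold changes come from the fit with TMM scaling. Lss, Tm7sf2 and Hsd17b7, with 81, 34 and 95 UMIs in all mOBs, were too low for the test.

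Fdps makes farnesyl diphosphate, the branch point between sterols and prenylated proteins. It is annotated on chromosome 3 from 89093588 to 89101959 (GRCm38, ENSMUSG00000059743). Its level in the WT libraries S1, S2, S5 and S6 was 8.40, 7.96, 12.1 and 8.32 CPM, and in the Het libraries S3, S4, S7 and S8 it was 38.6, 39.6, 25.0 and 27.1. All 4 Het libraries lay above all 4 WT libraries, and the means were 9.21 ± 1.97 in WT and 32.6 ± 7.61 in Het (SD, n = 4 each). The fitted log2 fold change was 1.65 (SE 0.22; adjusted p by edgeR = 0.0021). It was 2.19 within kit version 3 and 1.25 within version 3.1. These levels rest on 11 to 54 Fdps UMIs per WT library and 18 to 113 per Het library.

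Cyp51, the lanosterol demethylase and the first step after ring closure, is annotated on chromosome 5 from 4081145 to 4104746 (ENSMUSG00000001467). Its level was 22.8, 18.8, 40.5 and 26.0 CPM in WT (S1, S2, S5, then S6) and 55.3, 61.6, 67.6 and 46.6 in Het S3, S4, S7 and S8. The groups did not overlap, but the highest WT library, S5, came close to the lowest Het library, S8. The log2 fold change was 1.06 (SE 0.19; adjusted p by edgeR = 0.0204), 1.43 within kit version 3 and 0.79 within version 3.1. The call was lost when any 1 of S1, S2, S3, S4 or S6 was left out, with log2 fold changes between 0.96 (S2) and 1.05 (S3). Removing OBs that carried at least 3 markers of another cell class left WT S2 with 5 mOBs, under the minimum of 10 cells per sum, so that this alternative left out S2 as well. The log2 fold change of Cyp51 was then 1.11 (edgeR, adjusted p = 0.12), and without S2 alone it was 0.96 (adjusted p = 0.113).

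Fads1, the desaturase that makes arachidonic and eicosapentaenoic acid, was the only fatty acid gene called. Its level was 13.8, 13.7, 20.2 and 17.9 CPM in WT (S1, S2, S5, then S6) and 25.3, 32.9, 36.9 and 37.6 in Het S3, S4, S7 and S8, with no overlap. The log2 fold change was 0.96 (SE 0.16; adjusted p by edgeR = 0.0131), and it was similar in the kits at 1.05 in version 3 and 0.89 in version 3.1. The call was lost when any 1 of S1, S2, S4 or S6 was left out, with log2 fold changes of 0.87 to 0.94, and at the limit of 5% mitochondrial UMIs (0.86, adjusted p = 0.0896). It was 1.01 (edgeR, adjusted p = 0.0872) with the marked OBs and S2 both left out and 0.94 (adjusted p = 0.0757) without S2 alone.

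**Figure D1:**
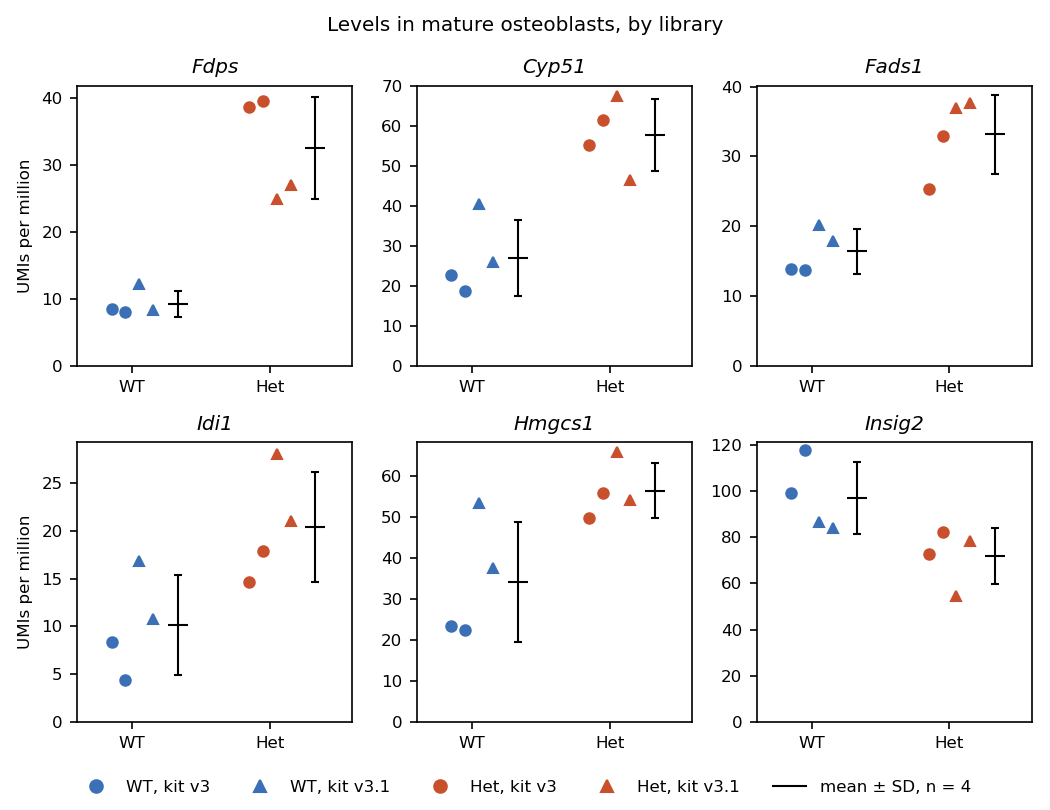
Levels of 6 members in mOBs as CPM (y axis, from 0) in each library, WT in blue and Het in orange, circles for kit version 3 and triangles for version 3.1, with the mean and SD of 4 libraries beside each group. The Het libraries lie above the WT libraries for Fdps, Cyp51 and Fads1, the groups overlap for Idi1 and Hmgcs1, and the Het libraries lie lower for Insig2.

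The next members by p did not pass the adjusted threshold. Idi1, which converts the isopentenyl unit to its reactive isomer, was at 8.40, 4.34, 16.9 and 10.8 CPM in WT (S1, S2, S5, then S6) and at 14.7, 17.9, 28.1 and 21.1 in Het S3, S4, S7 and S8. Its groups overlapped across kits and not within them, and the log2 fold change was 0.98 (SE 0.23; adjusted p by edgeR = 0.0742). Hmgcs1, the enzyme that makes HMG-CoA, was at 23.4, 22.4, 53.5 and 37.7 in WT and 50.0, 56.0, 66.0 and 54.2 in Het in the same order. Here WT S5 reached into the Het range, and the log2 fold change was 0.70 (SE 0.18; adjusted p by edgeR = 0.0991), 1.16 in kit version 3 and 0.37 in version 3.1. Without S5 both Idi1 (log2 fold change 1.20) and Hmgcs1 (0.89) passed, at adjusted p = 0.0466 and 0.0256, and Idi1 also passed without S8 (log2 fold change 1.04, adjusted p = 0.048). With no filter on low counts Idi1 (0.98) and Hmgcs1 (0.71) passed as well, at edgeR adjusted p = 0.0011 and 0.00062.

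Insig2, the retention protein of the SREBP complex, had the opposite sign. It was at 99.0, 118, 86.6 and 83.9 CPM in WT (S1, S2, S5, then S6) and at 72.6, 82.3, 54.6 and 78.2 in Het S3, S4, S7 and S8. Every Het library lay below every WT library, by a small margin between S6 and S4, as for 0.759% of the genes tested. The log2 fold change was -0.51 (SE 0.13; adjusted p by edgeR = 0.106) and was alike in the kits, at -0.53 in version 3 and -0.50 in version 3.1. It passed without S8 (log2 fold change -0.63, adjusted p = 0.0138) with other stage limits (-0.61, adjusted p = 0.0314) and with no filter on low counts (-0.50, adjusted p = 0.0193).

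As a group, 13 of the 14 sterol enzymes tested in mOBs had a positive log2 fold change, with a median of 0.59, where the median over all genes was 0.01. Pmvk, at -0.07, was the exception. At an unadjusted p under 0.05, 9 members were higher in Het, where 5.81% of all genes were, and 1 member, Insig2, was lower, where 5.04% were. Those 9 were Hmgcs1, Mvd, Idi1, Fdps, Fdft1, Sqle, Cyp51, Srebf2 and Fads1. Fdft1 and Sqle, the enzymes that make and oxidise squalene, had log2 fold changes of 0.70 ± 0.22 and 0.72 ± 0.24 (SE), and Mvd, which makes the isopentenyl unit, 0.63 ± 0.25. Among the later steps Ebp was at 0.07 ± 0.12, Dhcr7 at 0.26 ± 0.36, and Msmo1 at 0.55 ± 0.39 with 1.36 in kit version 3 and -0.02 in version 3.1. Mvk, the mevalonate kinase, was at 0.47 ± 0.30, Nsdhl, a sterol dehydrogenase, at 0.55 ± 0.29 and Sc5d, a sterol desaturase, at 0.46 ± 0.23.

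The regulators did not share a direction. Srebf2, the SREBP that mainly drives sterol genes, was at 13.8 to 39.4 CPM in WT and 35.3 to 47.8 in Het, with a log2 fold change of 0.67 (SE 0.19; adjusted p by edgeR = 0.148). Srebf1, which mainly drives fatty acid genes, was at -0.12 ± 0.21 and Scap at -0.13 ± 0.22. Insig1 had 0.34 ± 0.19, with -0.14 in kit version 3 and 0.72 in version 3.1.

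Of the 9 fatty acid genes, 8 had a positive log2 fold change in mOBs (9 with plain library totals), with a median of 0.32. The median was 0.61 within kit version 3, where 8 were positive, and -0.02 within version 3.1, where 4 were. Apart from Fads1 they ranged from -0.06 ± 0.23 for Elovl5 to 0.62 ± 0.29 for Scd1, a stearoyl-CoA desaturase. Scd2, the other stearoyl-CoA desaturase, was at 0.48 ± 0.28, with 1.07 in kit version 3 and -0.12 in version 3.1. Fasn, the fatty acid synthase, was at 0.12 ± 0.22 and Acly at 0.08 ± 0.19, while Fads2, Acaca and Elovl6 were at 0.32 ± 0.35, 0.20 ± 0.18 and 0.36 ± 0.22. Acat2 and Stard4 were at 0.38 ± 0.24 and 0.71 ± 0.34.

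**Figure D2:**
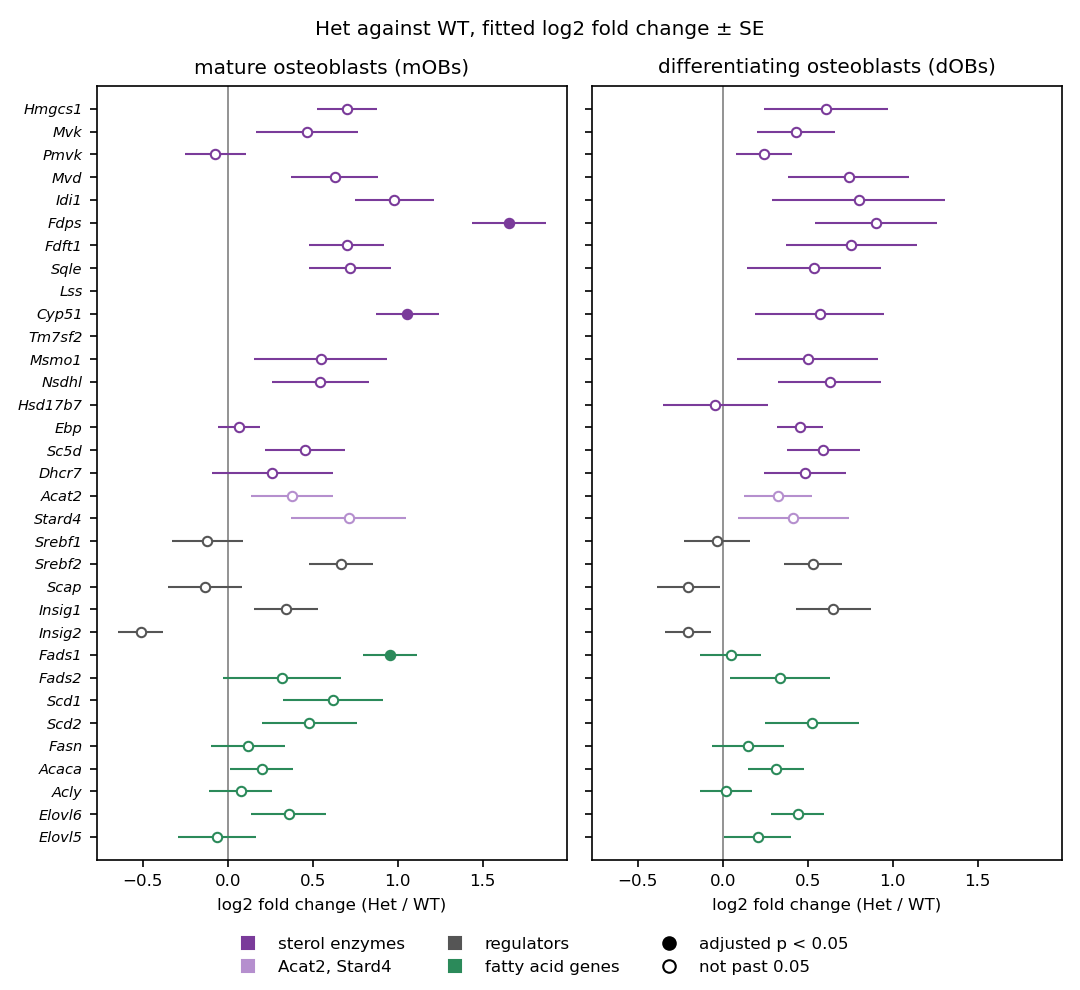
Fitted log2 fold change of Het over WT (x axis) with its standard error for each member (rows) in mOBs (left) and dOBs (right); filled points passed an adjusted p of 0.05 over all genes, open points did not, and members with no point were too low for the test. Filled points are Fdps, Cyp51 and Fads1 in mOBs and none in dOBs, and most sterol enzymes lie to the right of 0 in both panels.

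Of the 30 members tested, Fdps, Cyp51 and Fads1 had all 4 Het libraries above all 4 WT libraries, as did 1.85% of the genes tested. Lss, the lanosterol synthase, which was too low for the test, did so as well, at 2.08 to 3.62 CPM in WT and 3.64 to 9.32 in Het. For Lss the margin was very small: the highest WT value, in S2, rests on 5 UMIs and the lowest Het value, in S7, on 7. Both Het libraries lay above both WT libraries of each kit version for 6 of the 30 members (Hmgcs1, Idi1, Fdps, Cyp51, Srebf2 and Fads1), as for 7.59% of genes. Summed over the 17 sterol enzymes, mOBs held 226 to 326 CPM in WT and 329 to 439 in Het (means 252 ± 49.6 and 393 ± 51.9, SD, n = 4), so that the groups met at their edges without overlapping. Without Fdps the other 16 enzymes summed to 218 to 314 in WT and 302 to 414 in Het, and the groups overlapped. The 9 fatty acid genes summed to 154 to 324 in WT and 259 to 340 in Het, with overlap. The number of sterol enzyme UMIs per fatty acid gene UMI was 0.911 to 1.47 in WT and 1.27 to 1.30 in Het, so the spread in WT held all Het values.

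Some other measures differed between the genotypes within both kits in the same mOBs, and others did not. OB genes not used to select the cells, among them Bglap and Spp1, summed to 18526 to 47012 CPM in WT and 12354 to 20216 in Het, lower in Het within both kits. The sums of the 6 mural cell markers were 31.8 to 149 in WT and 63.4 to 348 in Het, higher in Het within both kits. Those of the 11 haematopoietic markers, with Cd3e at 0, were 9.57 to 671 in WT and at most 164 in Het, lower in Het within both kits. The 6 chondrocyte markers summed to 29.4 to 931 in WT and 202 to 2333 in Het. Among the 6 adipocyte markers, Adipoq, Lep and Cfd were at 0 in mOBs, and the sums were 143 to 571 in WT and 39.5 to 327 in Het. Neither the chondrocyte nor the adipocyte sums were apart in the same direction within both kits. No marker gene was called between Het and WT mOBs, and the part of these cells in the member differences was not tested. Leaving out OBs with 3 or more markers of another class also left out WT S2, and Fdps was then the 1 member called, as it was without S2 alone. The log2 fold change of Fdps was 1.84 (edgeR, adjusted p = 0.0241) in the former and 1.54 (adjusted p = 0.028) in the latter.

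Less mature OBs showed no called member. Lss, Tm7sf2 and Scd1 were too low for the test in dOBs, and 9 members were in eOBs (Mvk, Mvd, Lss, Tm7sf2, Nsdhl, Hsd17b7, Dhcr7, Fads2 and Scd1). In dOBs 0 of 30 members and 0% of 9857 genes passed in edgeR, where 712 genes had p under 0.05 before adjustment; 2 genes and 0 members passed in DESeq2. In eOBs 0 of 24 members and 0.0123% of 8118 genes passed, 282 genes had p under 0.05 before adjustment, and DESeq2 gave 9 genes and 0 members. At an unadjusted p under 0.05, 6 members were higher in Het dOBs, where 3.5% of genes were, and 1 member, Fdps, in eOBs, where 1.74% of genes were; Insig2 was lower in eOBs (log2 fold change -0.62 ± 0.22, SE), where 1.74% of genes were lower as well. In dOBs those 6 were Fdps, Ebp, Sc5d, Srebf2, Insig1 and Elovl6, at log2 fold changes of 0.44 to 0.90.

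In dOBs, Fdps was at 13.8, 40.6, 28.7 and 18.7 CPM in WT (S1, S2, S5, then S6) and at 80.8, 69.9, 29.4 and 37.6 in Het S3, S4, S7 and S8. Its high libraries were the Het libraries of kit version 3, and the log2 fold change of 0.90 (SE 0.36; adjusted p by edgeR = 0.669) was 1.79 in version 3 and 0.42 in version 3.1. Cyp51 was at 27.6, 94.1, 61.5 and 36.8 in WT and 114, 88.5, 58.8 and 67.0 in Het, with overlap.

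Fads1 in dOBs was at 40.7, 57.7, 29.7 and 23.8 in WT and 31.7, 47.5, 30.0 and 34.2 in Het, with the Het range inside the WT range and a log2 fold change of 0.05 ± 0.18. Idi1 was at 8.95, 36.3, 35.1 and 19.7 in WT and 83.7, 37.3, 31.4 and 41.7 in Het. Hmgcs1 was at 35.8, 70.6, 99.3 and 55.8 in WT and 128, 130, 86.7 and 83.4 in Het, and both genes overlapped between the genotypes. Insig2 was at 98.4, 98.3, 52.3 and 65.2 in WT and 66.4, 72.7, 58.5 and 61.6 in Het, where the high values were the WT libraries of kit version 3. Srebf2 was at 26.0 to 47.1 in WT and 49.4 to 70.4 in Het without overlap, as for 0.964% of the genes tested, and was not called (log2 fold change 0.53 ± 0.17, SE; edgeR, adjusted p = 0.566). Lss, not tested, was at 3.52 to 5.71 in WT and 7.05 to 13.0 in Het, also without overlap.

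The 15 sterol enzymes tested in dOBs had a median log2 fold change of 0.57, and 14 of them were positive. The median was 1.15 within kit version 3 and 0.30 within version 3.1. The 8 fatty acid genes tested had a median of 0.26 and all 8 were positive, where the median over all genes was 0.00. The medians of the latter were 0.33 and 0.14 within the kits, in the same order. The 6 mural cell markers in the same dOBs summed to 353 to 485 CPM in WT and 496 to 683 in Het, without overlap, and their part in these medians was not tested. The other marker sums overlapped between the genotypes in dOBs. In eOBs, which hold 22 to 95 cells per library, the 10 sterol enzymes tested were all positive with a median of 0.49, but the kits went opposite ways. Within kit version 3 all 10 were positive with a median of 1.76, and within version 3.1 the median was -0.25 and 8 were negative. Only Fdps and Ebp were positive in both. Fdps in eOBs was at 11.6, 24.9, 29.6 and 9.66 in WT (S1, S2, S5, then S6) and at 49.7, 44.1, 25.9 and 44.6 in Het S3, S4, S7 and S8. Insig2 was at 163, 174, 70.2 and 81.6 in WT and 62.1, 98.0, 68.9 and 66.9 in Het. WT S5 reached into the Het range of Fdps, and the WT libraries of kit version 3 set the high end of Insig2. In the same order of libraries, Cyp51 was at 20.8, 37.4, 66.3 and 45.1 and at 91.1, 93.1, 35.8 and 55.7, and Idi1 at 13.1, 28.0, 66.3 and 18.2 and at 62.1, 83.3, 26.8 and 50.1. Hmgcs1 was at 37.0, 40.5, 109 and 45.1 in WT and 157, 103, 70.7 and 89.1 in Het, and Fads1 at 30.1, 31.1, 23.4 and 33.3 in WT and 29.0, 24.5, 25.9 and 50.1 in Het. For these 4 genes the groups overlapped. Tm7sf2, a sterol reductase too low for the test, was at 2.31 to 6.23 in WT eOBs and at most 0.894 in Het, where 0.53% of the genes tested had all Het libraries below all WT libraries, but it rests on 14 UMIs in all eOBs. The same libraries gave the mOB, dOB and eOB values, so these medians are not independent of each other.

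The difference between the mOB and dOB effects was tested as a genotype by stage term, and 0 of 32 members passed, as did 0.00945% of 10580 genes in edgeR, where 484 genes had p under 0.05 before adjustment; DESeq2 gave 3 genes and 0 members. The term was 0.76 ± 0.28 for Fads1 (SE, edgeR) and 0.60 ± 0.26 for Fdps and -0.35 ± 0.16 for Ebp, each with an adjusted p of 0.9999. For Cyp51 it was 0.32 ± 0.35, and for Hmgcs1 and Idi1 it was -0.08 ± 0.23 and -0.05 ± 0.53. Calls in mOBs and none in dOBs are therefore not shown to be a difference between stages.

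Cells other than OBs were mostly on the same side. Of the 33 members, 29 (33 with plain library totals) had positive log2 fold changes in Het, the sterol enzymes with a median of 0.38 and the fatty acid genes with 0.55, where the median of all genes was 0.03. Within kit versions 3 and 3.1 the medians were 0.21 and 0.34 for the sterol enzymes and 0.80 and 0.28 for the fatty acid genes. None passed: 0 of 33 members and 0% of 16502 genes were called by edgeR, with p under 0.05 before adjustment in 4129 genes, while 2051 genes and 8 members passed in DESeq2, all 8 of them higher, where 4.49% of genes were called higher. At an unadjusted p under 0.05, 16 members were higher, where 12.3% of genes were. The lowest p values were those of Cyp51 (log2 fold change 0.75 ± 0.17, SE; edgeR, adjusted p = 0.175), Fads1 (0.55 ± 0.14) and Mvk (0.58 ± 0.15). Cyp51 was at 18.5, 18.5, 66.6 and 66.2 CPM in WT S1, S2, S5 and S6, and at 46.9, 40.7, 76.9 and 113 in the Het libraries. Fads1 was at 15.7, 14.2, 33.2 and 33.7 in WT and 31.9, 31.7, 36.8 and 44.7 in Het, and Fdps at 14.8, 18.0, 29.7 and 28.7 in WT and 25.9, 20.2, 30.2 and 56.6 in Het. For all 3 genes the groups overlapped across kits and not within them. The same held for many other members, among them Pmvk, Idi1, Sqle, Scd2 and Elovl6, but not for Hmgcs1, Fdft1 or Msmo1. The share of all genes with this pattern in other cells was not counted. Mvk, at 7.61 to 16.9 in WT and 18.4 to 21.0 in Het, was the 1 member without overlap, as were 2.19% of genes. In this mixture of cells Insig2 had a log2 fold change of 0.28 ± 0.13, the opposite sign to that in mOBs.

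The makeup of these other cells varied. Erythroid-like cells numbered 3037 in WT and 453 in Het, fibroblast-like cells 289 and 1211, and chondrocyte-like cells 6972 and 9028, with 16 chondrocyte-like cells in the poorest library. More cells of a type and more RNA per cell cannot be told apart in such sums. Within haematopoietic-like cells 0 of 30 members and 0.345% of 11022 genes were called, and within chondrocyte-like cells 0 of 33 members and 0.665% of 14140 genes. DESeq2 called 0 members in both, and 1557 and 1061 genes had an unadjusted p under 0.05 in edgeR. The sterol enzymes had median log2 fold changes of 0.26 and 0.17 in these classes, and the fatty acid genes -0.07 and 0.14. With plain library totals the fatty acid median in haematopoietic-like cells turned to 0.06, where the median of all genes moved from -0.01 to 0.11. In chondrocyte-like cells the medians were 0.10 and -0.04 within kit version 3 and 0.20 and 0.17 within version 3.1. In the order used above, Fads1 was at 9.44, 9.60, 21.0 and 18.7 CPM in WT haematopoietic-like cells and at 28.5, 22.2, 24.0 and 25.3 in Het, without overlap, as for 3.1% of genes with Het above. In chondrocyte-like cells Fads1 was at 30.9, 33.5, 40.0 and 39.9 in WT and 40.9, 42.7, 42.1 and 48.2 in Het, also without overlap, as for 1.55% of genes. Mvk did not overlap there either, at 8.37 to 18.8 in WT and 19.7 to 22.1 in Het, and the lowest value, in WT S2 with its 16 cells, rests on 1 UMI. The WT S2 values of Fads1 rest on 5 UMIs in haematopoietic-like cells and 4 in chondrocyte-like cells. In haematopoietic-like cells Fdps and Cyp51 were at 15.7 to 21.7 and 13.4 to 30.9 in WT and at 17.8 to 30.9 and 23.8 to 32.9 in Het, with overlap. On the log2 scale Sqle differed by 0.58 ± 0.25 and Fads1 by 0.62 ± 0.21 (SE) in haematopoietic-like cells, and Elovl6, which extends palmitate, had -0.78 ± 0.22, none of them called. Elovl6 was at 13.4 to 21.5 CPM in WT and 9.51 to 13.3 in Het, with all Het libraries below all WT libraries, as for 0.762% of genes. The margin was small, and the lowest WT value, in S2, rests on 7 UMIs.

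**Figure D3:**
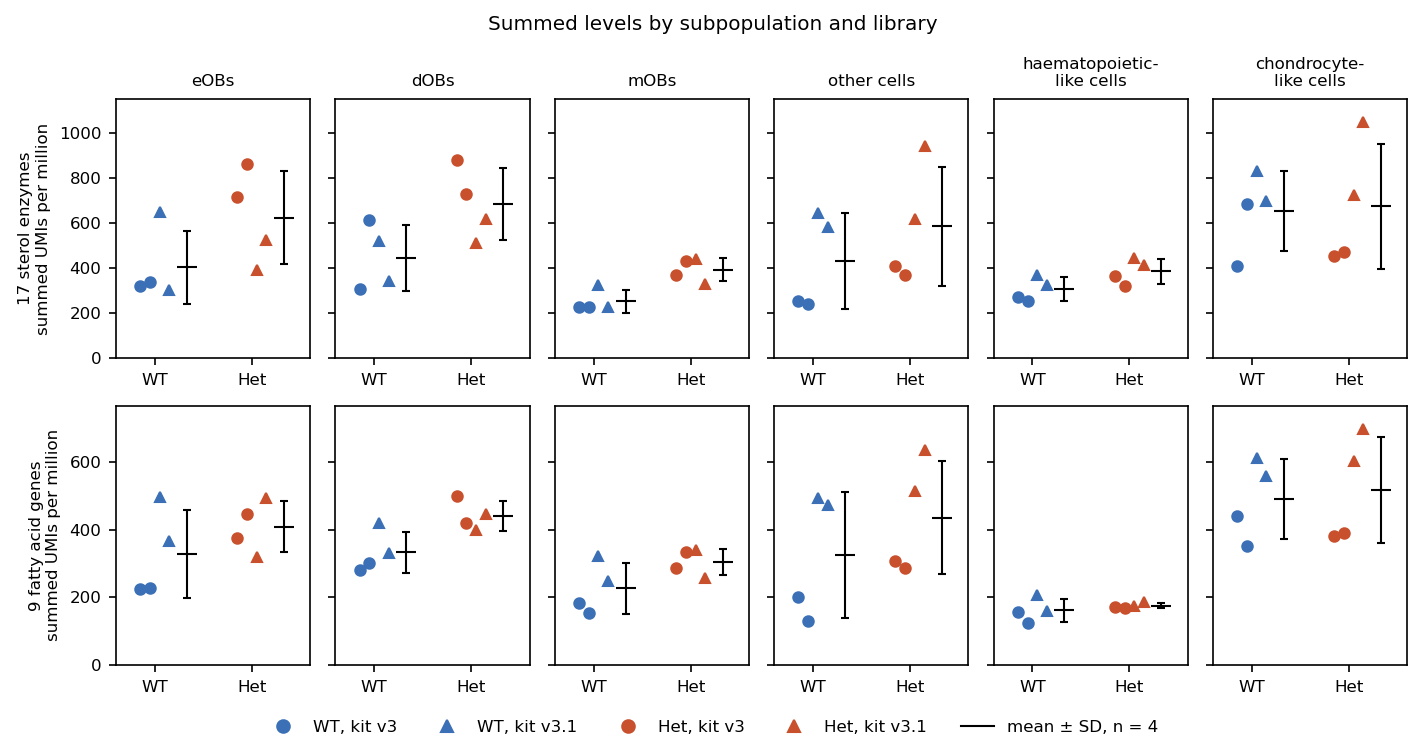
Summed level of the 17 sterol enzymes (top) and the 9 fatty acid genes (bottom) in CPM (y axis, from 0) for each library in eOBs, dOBs, mOBs, all other cells, haematopoietic-like and chondrocyte-like cells; symbols as in the plot of single genes, bars are mean and SD of 4 libraries. In mOBs the sterol sum is 226 to 326 in WT and 329 to 439 in Het, and in other cells the libraries separate by kit version.

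Levels also differed between the libraries of kit version 3 and those of version 3.1. Kit version, Cell Ranger version and any difference between experiments coincide here and cannot be told apart. In other cells 23 of the 33 members were higher in all 4 libraries of version 3.1 than in all 4 of version 3, where 36.5% of genes were, and Ebp was lower, where 17.3% of genes were. In mOBs 5 members (Nsdhl, Fads2, Acaca, Elovl6 and Elovl5) were higher in this sense, where 41% of genes were, and Ebp was again lower, where 8.76% were. Acaca, the acetyl-CoA carboxylase that commits carbon to fatty acids, was at 10.1 to 23.5 CPM in mOBs of version 3 and 51.2 to 75.9 in those of version 3.1, and Ebp, the sterol isomerase, at 61.5 to 66.6 and 33.3 to 44.2. Each kit held the same number of WT and Het libraries, and without kit version in the model no member and no gene was called in mOBs, while the fold changes of Fdps, Cyp51 and Fads1 stayed at 1.84, 1.09 and 0.97 on the log2 scale.

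The next comparison was that of mOBs with dOBs of the same library. Of 31 members tested (Lss and Tm7sf2 were too low), 11 fell, where 16.2% of 9669 genes were called lower, and 3 rose, where 15% were called higher (edgeR, library as a block). All 15 sterol enzymes tested had negative log2 fold changes, with a median of -0.42 against -0.03 for all genes. With plain library totals in place of TMM the median of all genes was -0.36, and 27 members were called lower and 2 higher, where 56.8% of genes were called lower and 5.9% higher.

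Of the sterol enzymes, Hsd17b7, Idi1, Dhcr7, Fdps, Hmgcs1 and Mvk were called. Hsd17b7, which reduces the sterol ketone during demethylation, fell most, with a log2 fold change of -0.99 (SE 0.24; adjusted p by edgeR = 0.0052). Its level was 5.04 ± 2.66 CPM in mOBs and 13.3 ± 6.37 in dOBs (SD, n = 8 libraries), lower in all 8. Idi1 fell by 0.78 ± 0.24 on the log2 scale, Dhcr7, the reductase that completes cholesterol, by 0.72 ± 0.18, and Fdps by 0.61 ± 0.15. Hmgcs1 fell by 0.54 ± 0.11, from 86.1 ± 32.8 to 45.4 ± 15.9 CPM. Cyp51 had -0.28 ± 0.17 and was not called.

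Acat2, which makes acetoacetyl-CoA for the mevalonate pathway, fell by 0.88 ± 0.14 on the log2 scale (SE; edgeR, adjusted p = 0.00025), from 24.5 ± 6.23 to 9.86 ± 2.71 CPM (SD, n = 8), and Stard4, a carrier of cholesterol in the cytosol, by 0.68 ± 0.21. Both were lower in mOBs in all 8 libraries. The retention proteins went the other way: Insig2 rose by 0.60 ± 0.09 (edgeR, adjusted p = 0.00018) and Insig1 by 0.49 ± 0.13 (edgeR, adjusted p = 0.0108). Insig2 was higher in mOBs than in dOBs in 7 of 8 libraries and Insig1 in 5 of 8. With plain library totals Insig2 had 0.25 (adjusted p = 0.0341) and Insig1 0.17 (adjusted p = 0.284), so that the call of Insig1 depends on the scaling. Srebf1, Srebf2 and Scap had -0.20, -0.16 and -0.12 and were not called.

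The fatty acid genes split. Elovl6 fell by 0.89 ± 0.11 on the log2 scale (SE; edgeR, adjusted p = 2.75e-05), from 45.1 ± 17.2 to 19.1 ± 11.1 CPM, and was lower in all 8 libraries. Elovl5, which extends polyunsaturated fatty acids, fell by 0.64 ± 0.17 and Acaca by 0.36 ± 0.10. Scd1 rose by 0.89 ± 0.18 (edgeR, adjusted p = 0.0019), from 8.88 ± 5.49 to 13.9 ± 5.96 CPM, and was higher in all 8 libraries. The remaining 5 were between -0.23 (Fasn) and 0.07 (Scd2) and not called.

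**Figure D4:**
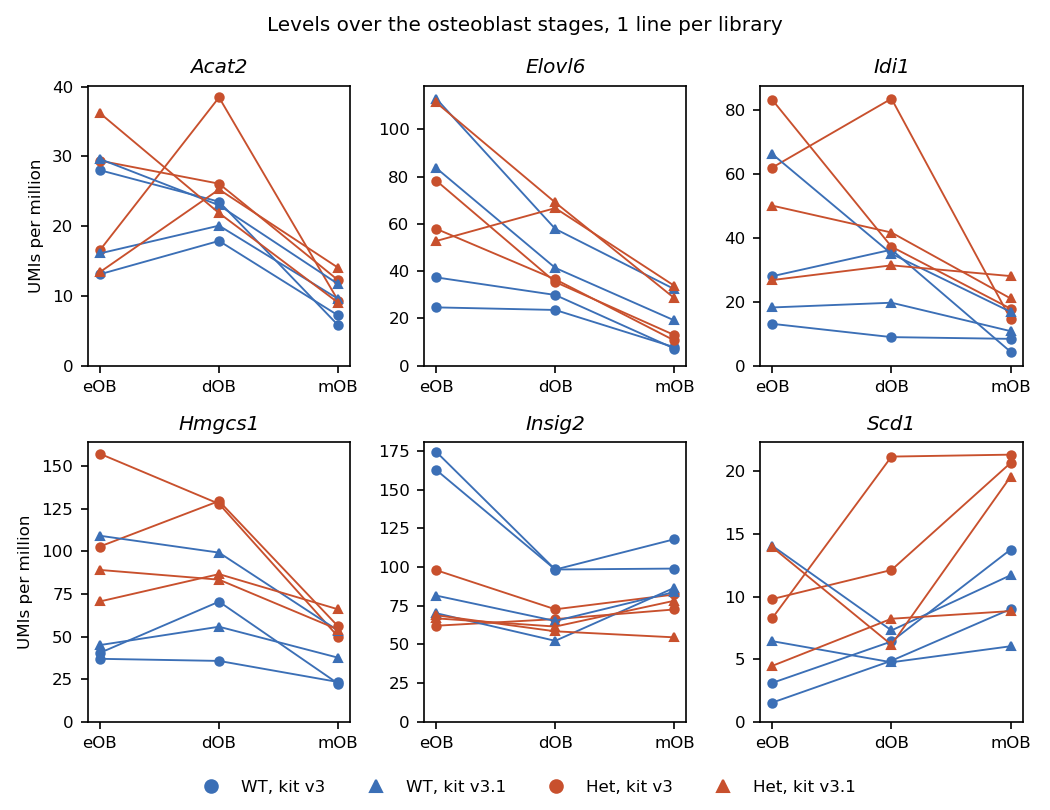
Levels of 6 members in CPM (y axis, from 0) in eOBs, dOBs and mOBs, 1 line per library, WT in blue and Het in orange, circles for kit version 3 and triangles for version 3.1. Acat2, Elovl6 and Hmgcs1 are lower in mOBs than in dOBs in all 8 libraries, Scd1 is higher in all 8 and Insig2 in 7.

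Between dOBs and eOBs, the earlier step, 1 of 29 members was called higher, where 5.95% of 9304 genes were, and 1 lower, where 6.65% were. Scd2 rose by 0.42 ± 0.12 on the log2 scale (SE; edgeR, adjusted p = 0.0313) and Elovl6 fell by 0.52 ± 0.17 (edgeR, adjusted p = 0.0475), and DESeq2 called neither, while leaving out 1 library left 0 to 1 call. With plain library totals none was called higher, where 4.52% of genes were, and Elovl6 and Insig2 were called lower, where 8.43% were. The sterol enzymes had a median of 0.19, with Fdps at 0.38 ± 0.16 and not called. Between mOBs and eOBs, 2 of 28 members were called higher, where 14.8% of genes were, and 5 lower, where 12.7% were. Those higher were Scd1 (1.08 ± 0.31) and Scd2 (0.52 ± 0.11), and those lower were Elovl6 (-1.45 ± 0.19), Idi1 (-0.95 ± 0.27), Stard4 (-0.95 ± 0.30), Elovl5 (-0.60 ± 0.19) and Msmo1 (-0.52 ± 0.19). With plain library totals none was called higher and 16 were called lower, where 6.28% of genes were called higher and 51.2% lower. The 3 stage comparisons share their libraries, and Elovl6, lower at each step, was at 69.9 ± 32.5, 45.1 ± 17.2 and 19.1 ± 11.1 CPM in eOBs, dOBs and mOBs.

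Against all other cells, OBs as a whole were not set apart by the pathway. The 17 sterol enzymes had a median log2 fold change of 0.00 and the fatty acid genes 0.02, where all genes had -0.04, and with plain library totals these were -0.09, -0.08 and -0.13. Of 33 members 3 were called higher in OBs, where 14.7% of 14291 genes were, and 4 lower, where 20.7% were. Insig2 was higher by 1.27 ± 0.24 on the log2 scale (SE; edgeR, adjusted p = 0.0026), at 59.1 to 122 CPM in OBs and 18.7 to 42.4 in other cells, higher in all 8 libraries. Ebp was higher by 0.83 ± 0.10 (edgeR, adjusted p = 0.00015), in all 8 libraries, and Scap by 0.36 ± 0.10, in 6 of 8.

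Stard4 was lower in OBs, with a log2 fold change of -1.21 (SE 0.24; adjusted p by edgeR = 0.0031), at 5.25 to 19.9 CPM against 16.4 to 57.2 in other cells, lower in all 8 libraries. Elovl6, Acly and Elovl5 were lower with -0.64 ± 0.22, -0.52 ± 0.16 and -0.28 ± 0.09. The call of Scap was lost with plain library totals (adjusted p = 0.156), with which 2 members were called higher and 5 lower, Sc5d among them, where 9.87% of genes were called higher and 24% lower. Leaving out 1 library gave 3 to 8 member calls, a range given without the calls over all genes in those fits.

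**Figure D5:**
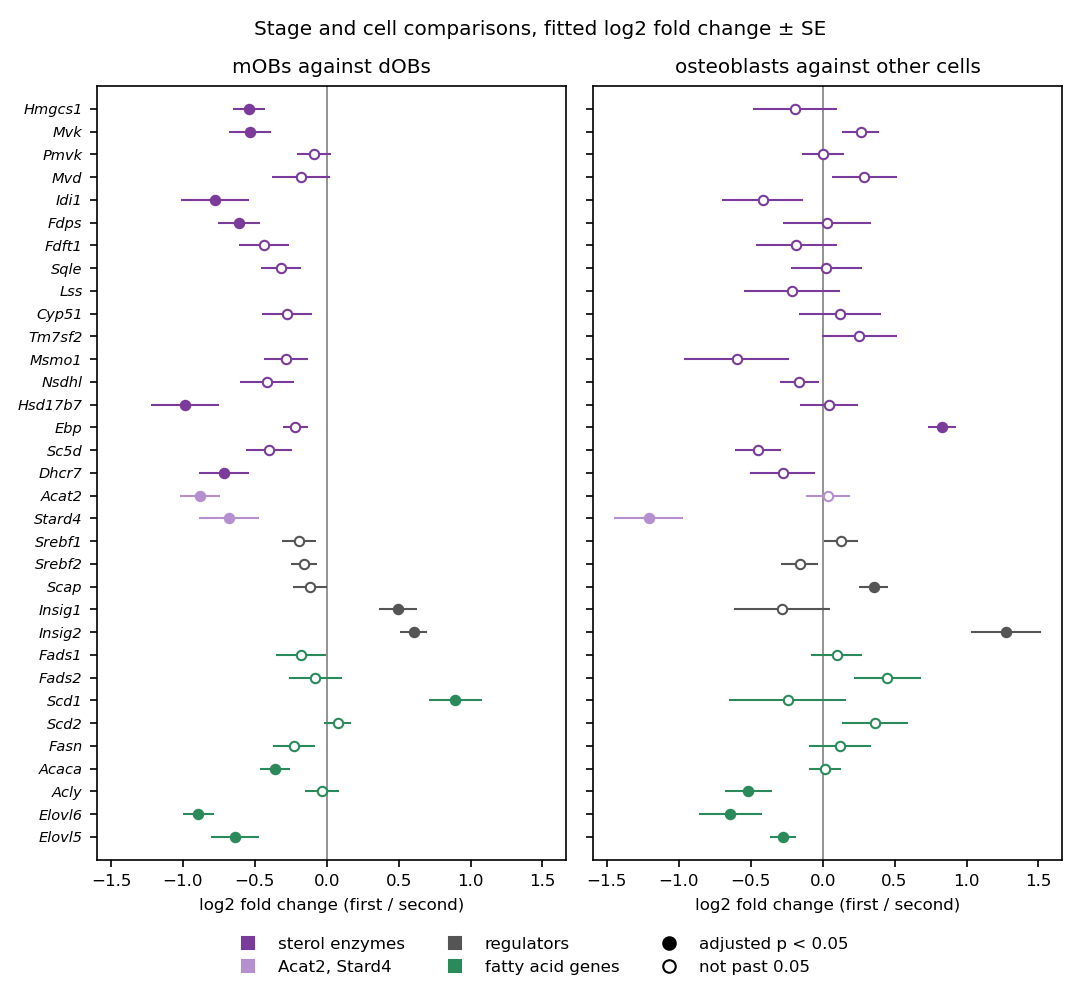
Fitted log2 fold change (x axis) with its standard error for each member (rows) of mOBs over dOBs (left) and of OBs over other cells (right), on 8 libraries; filled points passed an adjusted p of 0.05 over all genes. On the left, filled points lie below 0 except for Insig1, Insig2 and Scd1; on the right Insig2 and Stard4 lie farthest from 0, on opposite sides.

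Other genes of the same pathways were taken from a list of 21 sterol genes (transport, uptake, oxysterols and other enzymes) and 26 fatty acid genes found in the files. None was called between Het and WT in any subpopulation, and with plain library totals Hacd1 was called higher in Het mOBs (log2 fold change 0.62, edgeR, adjusted p = 0.0418). In mOBs the 16 of the first list that were tested had a median log2 fold change of 0.10 and the 17 of the second 0.18, where the 14 sterol enzymes above had 0.59. In dOBs the medians of these lists were -0.04 and 0.04. From dOBs to mOBs 5 of the 16 further sterol genes were called higher and 3 lower, and of the 17 further fatty acid genes 1 higher and 1 lower, where 15% of all genes were called higher and 16.2% lower. Those higher were the lipoprotein receptor Vldlr (1.83 ± 0.11 on the log2 scale, SE), the cholesterol exporter Abca1 (1.03 ± 0.13), Npc1, Npc2, which move cholesterol out of lysosomes, Nr1h2, an oxysterol receptor, and Tecr. Those lower were Lbr, Soat1, Pgrmc1 and Hacd1, by 0.29 to 0.49. With plain library totals Vldlr (1.48) and Abca1 (0.70) stayed called higher, and Npc1, Npc2, Nr1h2 and Tecr did not. In that setting 9 of the 16 and 9 of the 17 genes were called lower, near the 56.8% of all genes called lower, while 5.9% were called higher.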

How the data were processed

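Single-cell RNA was measured in 8 libraries. The authors used mm10, per the submitters' processing notes, and counted UMIs with Cell Ranger (5.0.0 for 4 libraries and 6.0.1 for the other 4, per the file headers), and the deposited values are raw counts of UMIs per gene and cell. Cells with at least 500 genes and under 10% mitochondrial UMIs were kept. No doublet caller was run; leaving out OBs with at least 3 markers of another class was an alternative. A class other than OBs needed at least 3 own markers and fewer than 3 of every other class. UMIs were summed per library and subpopulation, with at least 10 cells each.

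Sums were tested with edgeR 4.0.16 (R 4.3.3; filterByExpr, TMM, robust glmQLFit, glmQLFTest), with kit version and genotype as terms, or library as a block for stages; adjusted p is Benjamini-Hochberg over all genes tested. DESeq2 1.42.0 was an alternative. The fits were tested on simulated data. SE is the absolute log2 fold change divided by the square root of F. Gene positions are from GENCODE M21 (GRCm38). Summed mOBs held 664702 to 4805858 UMIs per library. CPM levels use plain totals of the same cells.

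Alternatives were DESeq2, RLE scaling, no filter on low counts, collagen genes left out, looser and stricter OB selection, other stage limits (0.5% and 5%), under 5% mitochondrial UMIs, OBs with other markers left out, no kit version, the replicate block, each library left out and, chosen after seeing the data, glmQLFit without robust estimation and plain library totals. All 33 members were accounted for; values in every library were given for members called between Het and WT or, where none was, for up to 6 with the lowest p in mOBs, and for stages the 4 largest called changes each way per group. Srebf2, and members named for their group, were added after their values were seen. The members and lists were chosen with earlier results of these data known.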

Additional observations from a re-analysis of the deposited data

Results flagged for a closer look

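Libraries that stood far from the other 3 of their group were looked for in 36 groups of 4 (6 genes, 3 stages and 2 genotypes), of which 2 were found; chance gives about 1 in 20. Fdps in mOBs was 12.1 CPM in WT library S5 and 7.96 to 8.40 in the other WT libraries. Hmgcs1 in eOBs was 109 CPM in WT library S5 and 37.0 to 45.1 in the other WT libraries. Both are the same library, which also held the most cells (11368). Without it the log2 fold change of Fdps in mOBs stayed called, and the number of members called is given below.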

How the results depend on the processing

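Over up to 21 alternatives no member called between Het and WT mOBs, between stages or between OBs and other cells changed sign. Some alternatives also lost libraries with under 10 cells: WT S2 in all OB sums without OBs with other markers, Het S3 in eOBs with other stage limits, Het S3 and S4 in eOBs with stricter selection, and WT S2 in chondrocyte-like cells under 5% mitochondrial UMIs. Those counts changed both choices at once. Members called between Het and WT mOBs were 3, and 10 (9 of them higher) with no filter on low counts, 1 without OBs with markers of another class (S2 lost too), 0 without kit version, and 1 to 7 on leaving out each library, with 1 without S1, S2, S4 or S6, 5 without S8 and 7 without S5. In dOBs 7 were called with no filter; in eOBs 1 without OBs with other markers; in other cells 8 with DESeq2; in haematopoietic-like cells 1 and in chondrocyte-like cells 3 with no filter, and in the latter 0 to 4 on leaving out a library (4 without S7). For mOBs against dOBs 29 were called with plain library totals. For dOBs against eOBs (2) there were 0 with DESeq2, other stage limits or under 5% mitochondrial UMIs, 1 with stricter selection, without OBs with other markers or without robust estimation, 5 with looser selection, and 0 to 1 on leaving out a library. For mOBs against eOBs (7) there were 11 with looser selection, 2 with stricter, 4 with other limits, under 5% mitochondrial UMIs or without OBs with other markers, 16 with plain totals, and 3 to 8 on leaving out a library (3 without S5, 4 without S8). For OBs against other cells (7) there were 4 with stricter selection and 3 to 8 on leaving out a library (4 without S5, S7 or S8, 3 without S6). Calls over all genes also changed between these alternatives, so a change in the member count alone is not a result about the members. The causes were not tested.

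The median log2 fold change in mOBs stayed between 0.50 and 0.72 for the sterol enzymes and between 0.16 and 0.49 for the fatty acid genes. Fdps ranged from 1.37 to 1.87 and was called in 20 of 21 alternatives; Cyp51 (0.90 to 1.27) and Fads1 (0.81 to 1.03) were called in 14 each. Libraries with the same number in a kit share only a number: their deviations correlated at -0.05 and -0.03, and the replicate block gave 3 members in mOBs (Fdps adjusted p = 0.0081 in edgeR) and 0 elsewhere. Over all genes, calls between Het and WT mOBs were 64, and 139 with DESeq2, 536 with no filter, 27 without OBs with other markers and S2 (16 without S2 alone), 41 with the replicate block and 16 to 191 on leaving out a library. They were 0 in dOBs (2 with DESeq2, 269 with no filter), 1 in eOBs (9 and 141), 0 in other cells (2051 with DESeq2), 38 in haematopoietic-like cells (295 and 1030) and 94 in chondrocyte-like cells (43 and 510). Stage calls were 3015 for mOBs against dOBs (6059 with plain totals), 1173 for dOBs against eOBs (531 to 2459) and 2538 for mOBs against eOBs (5302 with plain totals). Plain totals moved the median of all genes in other cells from 0.03 to 0.15 and in haematopoietic-like cells from -0.01 to 0.11. Depth limits Lss, Tm7sf2 and Hsd17b7 in mOBs.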
